A study of Homo sapiens with 3 samples.

Results

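The genes described here make the machinery that produces ribosomes: 41 genes for nucleolar proteins, small nucleolar ribonucleoproteins, assembly factors of both ribosomal subunits and RNA polymerase I. They are a list of gene symbols, grouped here by known role, and all 41 were found among the 22464 Ensembl genes of the expression table. RNA sequencing was done on SK-Hep-1 cells, an established human line from a liver adenocarcinoma, after stable lentiviral delivery of a short hairpin RNA. The shNC line carries a negative control hairpin, whereas sh1089-1 and sh1089-2 each express a separate hairpin directed at LINC01089, a long noncoding RNA. Every group is 1 library, so the comparisons have no replicate check and no test between groups was possible. Any difference is between 2 libraries. The level of LINC01089 was not analysed here.

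Ribosome production starts in the nucleolus. RNA polymerase I transcribes a long precursor of ribosomal RNA, with UBTF on the DNA and RRN3 joining the polymerase to its promoter. Small nucleolar ribonucleoproteins then modify that precursor at sites set by their guide RNAs: box C/D particles, built on FBL, NOP56 and NOP58, add methyl groups, and box H/ACA particles, built on DKC1, NOP10, NHP2 and GAR1, make pseudouridine. The precursor is folded and cut inside the small subunit processome, and the large subunit grows on the other part with the help of helicases, GTPases and scaffold proteins. Growing and dividing cells need much of this output, and the transcription factors that drive growth bind many of these genes at E-boxes.

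The promoters are shown first because the E-box, the letters CACGTG, was common in them. A RefSeq promoter sequence (GRCh38.p14), from 250 bases before to 50 bases after the annotated start, was found for 35 of the 41 genes. CACGTG, which reads the same on both strands, was present in 12 of the 35 (34.3%), against 10.5% of 8433 promoters of the same length from genes averaging 1 FPKM or more. FPKM is the number of fragments per kilobase of gene length, scaled to the mapped fragments of the library. By role, 6 of 10 small subunit genes, 3 of 10 large subunit genes and 3 of 7 small nucleolar ribonucleoprotein genes held it. None of the 6 RNA polymerase I genes did. The ETS core CCGGAAG, on either strand, was in 14 of 35 (40%) against 20.7%. The GC box GGGCGG was in 74.3% against 73%, the CCAAT box, searched as CCAAT, in 40% against 36.8%, and the TATA box TATAAA in 5.71% against 5.09%, all on either strand. An NRF1 motif was in 2 of the 35 (5.71% against 2.43%). No searched motif contains another, and a match describes the sequence only. Genes with an E-box had a median difference of 0.21 in log2(FPKM + 1) between sh1089-1 and shNC, and of −0.11 between sh1089-2 and shNC (11 genes). The 23 genes without one had −0.01 and −0.18.

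Below, 150 bases around the start, 120 before it and 30 after, are given 5′ to 3′ on the strand of the gene, with CACGTG in capitals. FBL, RRP9, UTP20 and GNL2 are examples with an E-box close to the start. RRP1 and RRN3, which moved most from shNC in opposite directions, are genes without an E-box. The coordinates are on GRCh38.p14. FBL lies on the minus strand at chr19:39846350-39846499, RRP9 on the minus strand at chr3:51941875-51942024, UTP20 on the plus strand at chr12:101279985-101280134, GNL2 on the minus strand at chr1:37595908-37596057, RRP1 on the plus strand at chr21:43789457-43789606, and RRN3 on the minus strand at chr16:15094306-15094455.
FBL: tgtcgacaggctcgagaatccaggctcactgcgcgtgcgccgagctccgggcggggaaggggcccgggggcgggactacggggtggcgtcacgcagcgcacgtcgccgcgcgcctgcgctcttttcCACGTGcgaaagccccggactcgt
RRP9: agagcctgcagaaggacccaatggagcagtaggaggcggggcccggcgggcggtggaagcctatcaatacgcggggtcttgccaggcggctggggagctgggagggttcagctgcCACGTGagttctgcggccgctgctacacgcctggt
UTP20: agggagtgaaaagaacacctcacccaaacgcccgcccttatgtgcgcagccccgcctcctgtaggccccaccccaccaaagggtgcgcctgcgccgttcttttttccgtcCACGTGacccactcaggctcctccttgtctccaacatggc
GNL2: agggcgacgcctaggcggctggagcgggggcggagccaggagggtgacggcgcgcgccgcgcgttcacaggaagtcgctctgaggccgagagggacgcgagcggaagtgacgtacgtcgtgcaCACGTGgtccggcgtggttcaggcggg
RRP1: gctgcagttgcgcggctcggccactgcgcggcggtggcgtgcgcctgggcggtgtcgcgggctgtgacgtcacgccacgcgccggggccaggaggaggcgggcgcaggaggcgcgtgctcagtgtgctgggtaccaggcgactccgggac
RRN3: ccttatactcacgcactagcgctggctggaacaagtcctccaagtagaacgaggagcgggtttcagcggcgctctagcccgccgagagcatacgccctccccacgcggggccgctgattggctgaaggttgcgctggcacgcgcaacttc
The E-box began at base 7 of the FBL transcript and at base 4 of that of GNL2. In UTP20 it began 10 bases before the start and in RRP9 5 bases before it. Over all 35 promoters there were 13 sites, 8 of them after the start. Counted from the start, the first began at −170 and the last at 36.

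The filter used throughout, an average of 1 FPKM or more across the libraries, was passed by 40 of the 41 genes and by 11198 genes in all. Their levels spanned a wide range, from DDX10 with 2.14, 2.5 and 1.99 FPKM (shNC, then sh1089-1, then sh1089-2) to NPM1 with 285, 334 and 250. NPM1 encodes nucleophosmin, the nucleolar histone and ribosome chaperone. The most abundant genes after it were NOP10, FBL, NCL and NHP2. RNA polymerase I genes were less abundant, the highest being UBTF with 21.3, 25.6 and 22.5 FPKM. The plot of levels shows each gene in the 3 libraries.

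**Figure D1:**
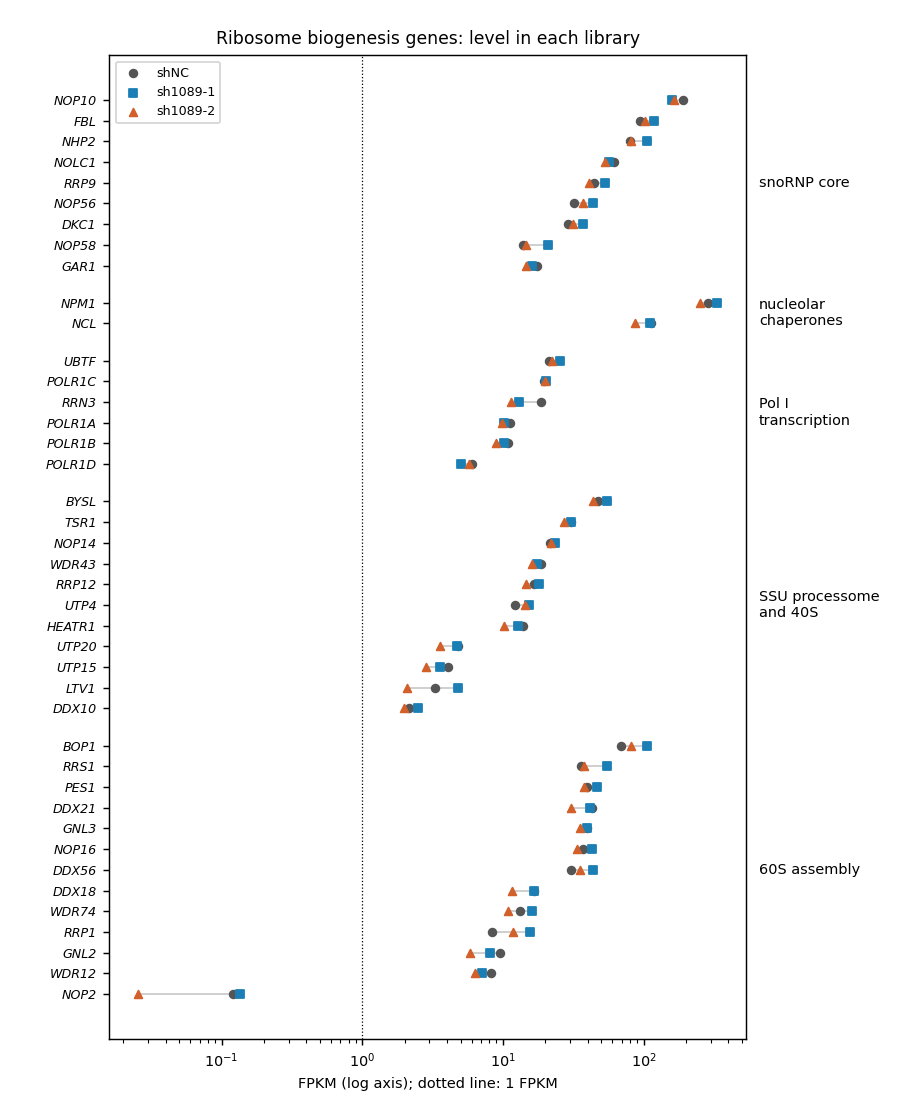
Level of each of the 41 genes in FPKM on a log axis, 1 point per library (circle shNC, square sh1089-1, triangle sh1089-2), grouped by role, with a dotted line at 1 FPKM. NPM1 stands highest, at 250 to 334 FPKM, and NOP2 alone lies below 1.

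The 41st gene, NOP2, which encodes a methyltransferase of 28S ribosomal RNA, was listed at 0.120, 0.134 and 0.0255 FPKM, on 6, 6 and 1 recovered reads, where dividing cells normally express it. In GENCODE 29, 54.4% of its exon bases also belong to AC006064.6, a protein-coding gene on the same strand that is not among the listed genes. How the authors counted reads that fall on 2 genes is not given in the sources used here. The low value was therefore not read as low expression, and a difference in NOP2 was not detectable at this depth. Overlaps were smaller elsewhere. LTV1 shared 34.8% of its exon bases with genes on its strand, RRS1 11.4% and WDR74 10.1%. NHP2 shared 27.4% with genes on the other strand and HEATR1 23.2%.

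The libraries held 8359832 to 10698480 reads, recovered from the steps of the FPKM values, with shNC the deepest and sh1089-2 the shallowest. Of 9 endothelial markers 8 were listed and 1 passed 1 FPKM, with summed levels of 1.75, 2.00 and 1.84 FPKM, and PECAM1, CDH5 and VWF were at or near 0. Of 9 hepatocyte markers 5 were listed, with summed levels of 5.19, 6.39 and 8.36 FPKM, and APOA1 and TTR were at 0 in every library. The 1 that passed was SERPINA1, with 4.69, 5.91 and 8 FPKM, 1.71-fold higher in sh1089-2 than in shNC (1.44 to 2.02). Of 5 leukocyte markers 1 passed. The epithelial and mesenchymal sums rested on KRT8, KRT18 and VIM, and were 1357, 2132 and 2096 FPKM and 942, 1192 and 1469 FPKM in shNC, sh1089-1 and sh1089-2. The other epithelial markers, EPCAM and CDH1, were at or near 0. The other mesenchymal markers did not all share the direction of VIM. Of 5 that passed, COL3A1 (8.04, 6.44 and 8.39 FPKM), PDGFRB (2.03, 1.26 and 1.94) and LUM (2.17, 1.22 and 0.896) were lower in sh1089-1 than in shNC. THY1 (6.85, 12.2 and 11.9) was higher than shNC in both hairpin libraries. The part of these markers in the results was not tested. Mitochondrial genes took 5.24%, 4.69% and 5.10% of the reads. In a bulk library, less RNA per cell and fewer cells with that RNA cannot be told apart.

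The first comparison, sh1089-1 against shNC, asked which of these genes moved when the first hairpin was present. Most stayed close to the control, with a lean to higher values in the small nucleolar ribonucleoprotein and large subunit genes. Differences are given in log2(FPKM + 1), and a gene counts as higher or lower from 1.5-fold on that scale (a difference of 0.585), while single folds are plain FPKM ratios with a 95% counting interval from the recovered reads. Of the 40 genes, 3 were higher (RRP1, RRS1 and BOP1), where 5.27% of all 11198 genes were, and 0 were lower, where 5.83% were. A share of 3 in 40 is near that background. By sign alone 22 lay above shNC and 18 below, against 46.3% above and 53.6% below among all genes. This split moved with the scaling: 26 lay above and 14 below after scaling to a common sum (51% of all genes below), and 27 above and 13 below with median-ratio factors (49.7% below). The median difference was 0.11, against −0.03 over all genes, and the values ran from −0.50 to 0.83. The counting interval of the fold lay above 1 for 19 of the 40 and below 1 for 7, where 24.6% and 27.9% of all genes did so. These intervals cover counting error only, and they narrow with more reads. A mean of at least 5 FPKM was reached by 36 of the 40 genes but by 6376 of all 11198. The interval shares in the 3 comparisons are therefore not like for like.

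In the second comparison, sh1089-2 against shNC, the genes leaned the other way. Here 0 of the 40 were higher, against 4.89% of all genes, and 2 were lower (RRN3 and GNL2), against 5.63%, so the count past 1.5-fold was again near the background. By sign 27 lay below shNC and 13 above, where 55.1% of all genes lay below. The median was −0.17, against −0.04 over all genes, with a range from −0.67 to 0.45. The counting interval lay below 1 for 21 genes and above 1 for 7, against 27.6% and 22.1% of all genes. Both hairpins share the 1 shNC library. Of the 40 genes, 0 passed 1.5-fold the same way in both, where 3.08% of all genes were higher and 2.79% lower in both. By sign 13 were above shNC in both hairpins (33.3% of all genes), 18 below in both (42.3%), and 9 above in sh1089-1 but below in sh1089-2 (12.8%). No gene of the 40 showed the reverse pattern, which 11.3% of all genes did.

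**Figure D2:**
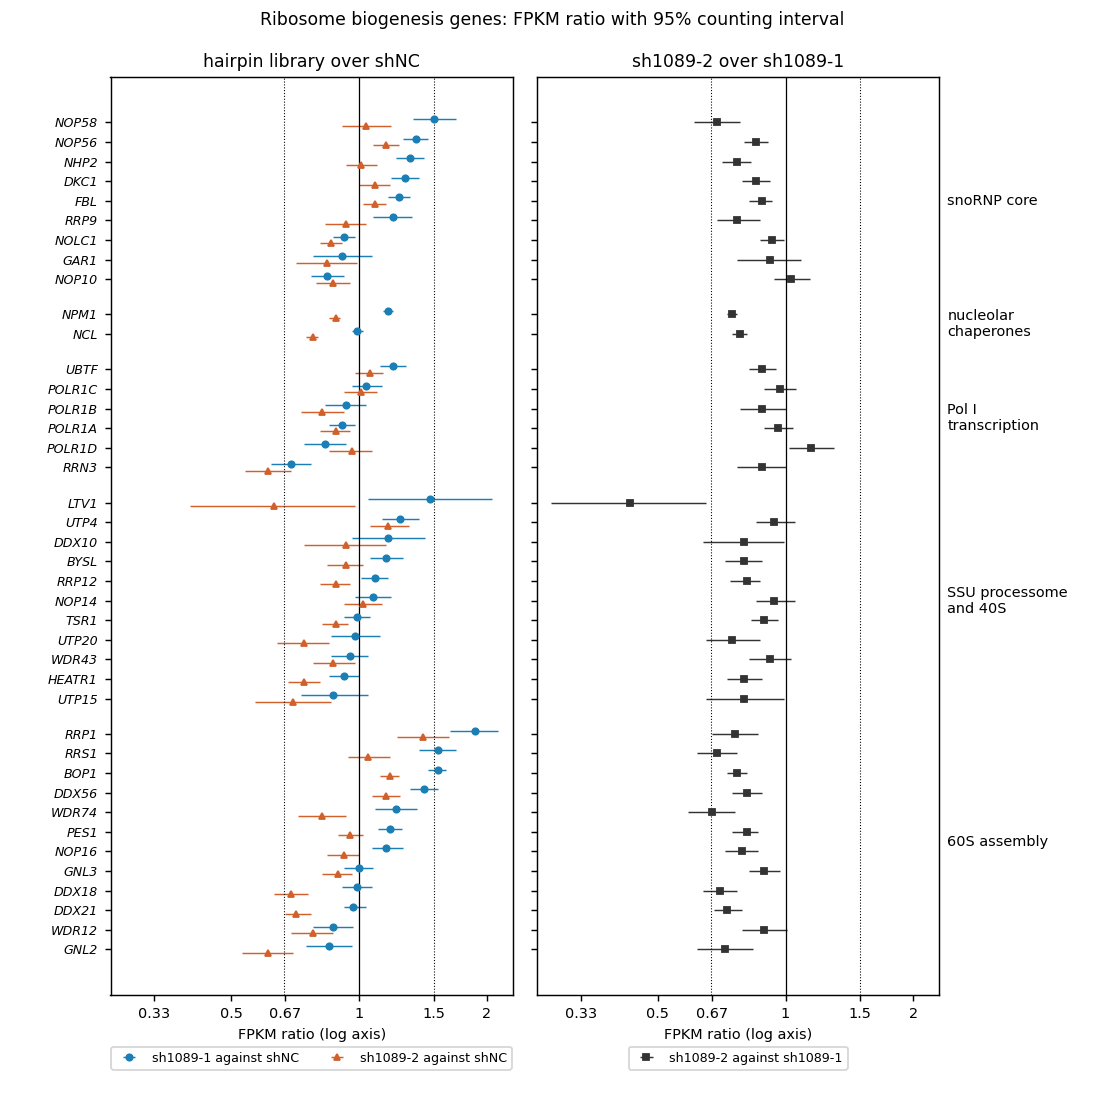
FPKM ratio of each of the 40 genes with a mean of at least 1 FPKM, on a log axis, grouped by role, with 95% counting intervals as bars and dotted lines at 1.5-fold. Left, sh1089-1 (circles) and sh1089-2 (triangles) over shNC. Right, sh1089-2 over sh1089-1, where 38 of the 40 points lie left of 1.

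The third comparison set the hairpin lines against each other and does not use shNC. Of the 40 genes, 38 were lower in sh1089-2 than in sh1089-1, where 52.1% of all genes were. The other two were NOP10 and POLR1D. The differences were small: the median was −0.27, against −0.01 over all genes, and 1 gene of 40, LTV1, was lower by 1.5-fold or more, against 2.3% of all genes, while 0 were higher, against 2.47%. The counting interval of the fold lay below 1 for 30 genes and above 1 for 1, POLR1D. Among all genes, a smaller share of which reached a mean of 5 FPKM, these shares were 20.2% and 17.5%. After the values were scaled to a common sum, 37 of the 40 were lower, against 45.2% of all genes. Without replicates, a difference between lines that any pair of cultures could show and one due to the hairpins cannot be told apart. The sh1089-2 library also had fewer reads (8359832 against 9528312), and the part of depth in the result was not tested.

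**Figure D3:**
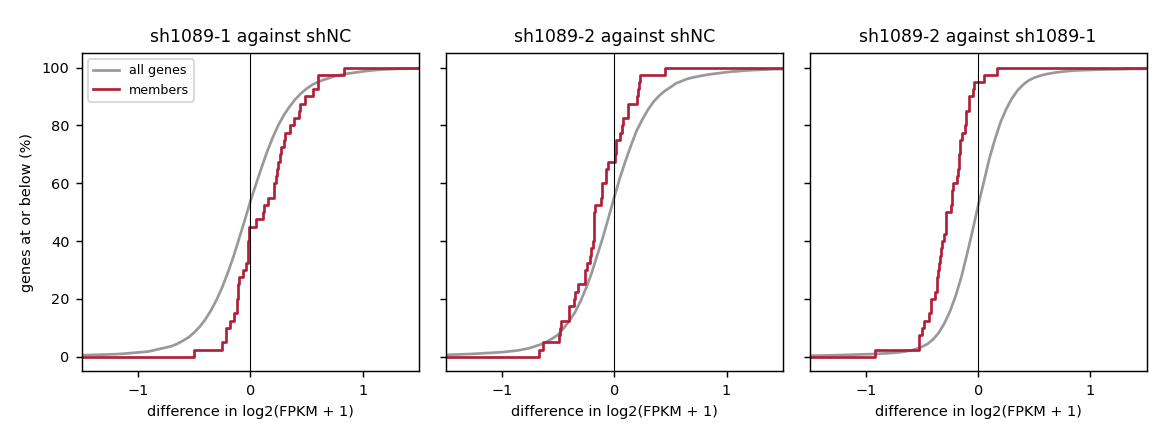
Cumulative share of genes (%) against the difference in log2(FPKM + 1), for all 11198 genes (grey) and the 40 ribosome biogenesis genes (red), 1 panel per comparison. The red curve lies right of the grey in sh1089-1 against shNC (medians 0.11 and −0.03), and left of it in the other panels (−0.17 and −0.04, −0.27 and −0.01).

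Among the roles, the small nucleolar ribonucleoprotein genes stood furthest above shNC in sh1089-1 as a group, with a median difference of 0.31 over 9 genes, and had 0.02 in sh1089-2. Values are given in the order shNC, sh1089-1, sh1089-2 from here on. NOP58, a core protein of box C/D particles, had 14.0, 21.0 and 14.5 FPKM. It was high in sh1089-1 only, at 1.5-fold of shNC (1.34 to 1.69), and short of the threshold on the scale with the pseudocount. NOP56, its partner, had 32.2, 43.7 and 37.2 FPKM, above shNC in both hairpin libraries, by 1.36-fold (1.27 to 1.45) and 1.16-fold (1.08 to 1.24). FBL, fibrillarin, the methyltransferase of the particle, had 94.9, 118 and 103 FPKM, in the same order. RRP9, which binds the U3 small nucleolar RNA, had 44.1, 52.9 and 41 FPKM.

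The box H/ACA proteins did not share a direction. DKC1, dyskerin, the pseudouridine synthase, had 28.8, 36.9 and 31.4 FPKM, and NHP2 had 79.9, 105 and 80.8, both highest in sh1089-1. Their partners in the same particle went the other way: NOP10 had 191, 160 and 165 FPKM, and GAR1 17.6, 16 and 14.7, both highest in shNC. NOP10 was 1.19-fold lower in sh1089-1 (1.09 to 1.31) and 1.15-fold lower in sh1089-2 (1.05 to 1.27). NOLC1, a phosphoprotein that chaperones these particles, had 61.7, 56.9 and 52.8 FPKM, highest in shNC.

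The abundant nucleolar chaperones gave the most precise ratios. NPM1, on 11657, 12188 and 8003 reads, was 1.17-fold higher in sh1089-1 than in shNC (1.14 to 1.20) and 1.14-fold lower in sh1089-2 (1.11 to 1.17). NPM1 has 15 listed pseudogenes, of which 1, NPM1P27, passed 1 FPKM (13.5, 13.7 and 10.5 FPKM), and reads shared with them could not be told apart. NCL, nucleolin, had 112, 111 and 86.7 FPKM on 8160, 7204 and 4945 reads. Its level was low in sh1089-2 only, 1.29-fold below shNC (1.24 to 1.34) and 1.28-fold below sh1089-1 (1.23 to 1.33).

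In the RNA polymerase I group the initiation factor gene RRN3 was the exception. RRN3 (chromosome 16, 15060022 to 15094317, minus strand of GRCh38), whose protein TIF-IA couples the polymerase to growth signals, had 18.8, 13 and 11.5 FPKM. Both hairpin libraries were below the control, by 1.45-fold (1.29 to 1.62) and 1.65-fold (1.46 to 1.86). RRN3 has close pseudogene copies on the same chromosome, so its reads are uncertain, and those above 1 FPKM were lowest in a hairpin library too: RRN3P1 had 2.17, 1.44 and 0.888 FPKM, and RRN3P3 1.92, 0.967 and 1.35. The 25 expressed genes on each side of RRN3 had medians of −0.19 and −0.13 in the 2 hairpins, against −0.50 and −0.67 for RRN3.

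The polymerase subunits differed less. POLR1A, the largest subunit, had 11.2, 10.2 and 9.85 FPKM, and POLR1B, the other part of the catalytic core, 10.8, 10.1 and 8.86. Both were highest in shNC and lowest in sh1089-2, POLR1A by 1.14-fold (1.06 to 1.23) and POLR1B by 1.22-fold (1.09 to 1.37) against shNC. POLR1C and POLR1D form the assembly platform that RNA polymerases I and III share. POLR1C had 19.6, 20.4 and 19.8 FPKM, so the 3 libraries lay within counting error. POLR1D had 6.02, 5.01 and 5.75 FPKM and was lowest in sh1089-1. UBTF, which opens ribosomal DNA for transcription, was 1.20-fold higher in sh1089-1 (1.12 to 1.29), and 1.06-fold in sh1089-2 (0.98 to 1.14).

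Small subunit factors were near the control in sh1089-1 (median 0.11 over 11 genes) and lower in sh1089-2 (median −0.18). Between the hairpin lines 11 of 11 were lower in sh1089-2, against 52.1% of all genes. LTV1, a late factor of 40S assembly, had 3.28, 4.81 and 2.07 FPKM on only 65, 85 and 32 reads. It was highest in sh1089-1 and lowest in sh1089-2, with a ratio of 2.33-fold between them (1.54 to 3.62), and shares exon bases with another gene as given above. The U3 processome proteins UTP15 and UTP20 and the large scaffold HEATR1 were low in sh1089-2: against shNC their levels there were 1.43-fold lower (1.17 to 1.75), 1.35-fold lower (1.17 to 1.57) and 1.35-fold lower (1.24 to 1.48). In sh1089-1 the same genes had 3.57, 4.72 and 12.8 FPKM, beside 4.08, 4.81 and 13.9 in shNC. UTP4, also of the processome, was above shNC in both hairpins, with 12.2, 15.2 and 14.3 FPKM. BYSL, bystin, had 47.3, 54.9 and 43.8 FPKM, and RRP12, an export factor, 16.6, 18.1 and 14.6. The remaining members, WDR43, NOP14, DDX10 and TSR1, differed from shNC by between −0.07 and 0.16 with the first hairpin and by between −0.18 and 0.02 with the second.

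The large subunit group had members well above and well below shNC. RRP1 (chromosome 21, 43789513 to 43805293, plus strand) had 8.31, 15.5 and 11.7 FPKM. It was above shNC in both hairpin libraries, 1.87-fold (1.64 to 2.12) in sh1089-1 and 1.41-fold (1.23 to 1.63) in sh1089-2. Up to 25 expressed genes on each side of RRP1, 49 in all, had medians of 0.13 and 0.13. BOP1, PES1 and WDR12 form one complex that is needed to process the 28S side of the precursor, and the 3 genes did not share a direction. BOP1 had 69.4, 106 and 81.7 FPKM and was 1.53-fold higher in sh1089-1 (1.45 to 1.60). The 25 expressed genes on each side of BOP1 had medians of 0.16 and −0.01 in the hairpins against shNC, and of −0.16 between the hairpin lines. PES1 had 39.7, 47.0 and 37.9 FPKM, highest in sh1089-1, and WDR12 8.18, 7.12 and 6.35, highest in shNC.

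RRS1, which brings the 5S particle to the growing subunit, had 36.1, 55.2 and 38.0 FPKM and stood out in sh1089-1 alone, at 1.53-fold of shNC (1.38 to 1.69). DDX56, a nucleolar helicase, was above shNC in both, with 30.7, 43.6 and 35.5 FPKM. The helicases DDX18 and DDX21 were low in sh1089-2 alone: DDX18 had 16.7, 16.5 and 11.6 FPKM and DDX21 42.9, 41.8 and 30.7. Against shNC these were 1.44-fold (1.32 to 1.58) and 1.40-fold (1.31 to 1.5) lower. GNL2 (chromosome 1, 37566816 to 37595935, minus strand), a GTPase of 60S assembly, had 9.58, 8.11 and 5.83 FPKM. It was below shNC in both hairpin libraries, by 1.18-fold (1.04 to 1.34) and 1.64-fold (1.42 to 1.90). The 25 expressed genes on each side of GNL2 had medians of −0.02 and −0.03. GNL3, nucleostemin, a relative of GNL2, had 39.8, 39.6 and 35.4 FPKM. WDR74 was above shNC in sh1089-1 and below it in sh1089-2, with 13.2, 16.1 and 10.8 FPKM, and NOP16 had 36.8, 42.9 and 33.7.

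Genes with small nucleolar RNA genes inside their bounds were frequent: 8 of the 40, or 20%, held 1 or more on their strand, against 1.84% of 10313 expressed protein-coding genes. They were NOP56, NOP58, DKC1, NCL, GNL3, WDR43, TSR1 and POLR1C, with 26 such RNA genes in all. These RNAs guide modification of ribosomal RNA and are released from the spliced introns of their hosts. Only 13 of the 26 were listed, and none had more than 6 reads in a library, so their levels were not compared. The hosts had median differences of 0.02 and −0.08 from shNC, the other members 0.14 and −0.18, and 8 of 8 hosts and 30 of 32 other members were lower in sh1089-2 than in sh1089-1, against 52.1% of all genes.

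Other genes of ribosome production, which are not among the 41, were examined by the same measures in 5 lists of 147 genes, of which 145 were listed and 142 passed the filter. In sh1089-1, 4 were higher than shNC by 1.5-fold, against 5.27% of all genes, and 0 lower, against 5.83%. In sh1089-2, 1 was higher, against 4.89% of all genes, and 7 lower, against 5.63%. Each of these counts was a smaller share than among all genes. The medians were 0.11 and −0.10. Between the hairpin lines 123 of the 142 were lower in sh1089-2, against 52.1% of all genes, with a median of −0.20. Of the 142, 57 were above shNC in sh1089-1 but below it in sh1089-2, against 12.8% of all genes.

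By list, the counts lower in sh1089-2 than in sh1089-1 stand beside 52.1% of all genes. They were 45 of 48 further small subunit factors, 42 of 53 large subunit factors and 13 of 14 exosome genes. The others were 9 of 9 assembly factors of small nucleolar ribonucleoproteins and 14 of 18 further RNA polymerase I genes. The 1 gene past 1.5-fold in both hairpins in the same direction was EXOSC3, a subunit of the RNA exosome that trims ribosomal RNA ends, with 3.99, 7.22 and 6.61 FPKM. Of the remaining exosome genes EXOSC2 (10.3, 17 and 14.3 FPKM) and EXOSC9 (4.37, 7.77 and 5.71 FPKM) were higher in sh1089-1 only by that threshold. TAF1A, a subunit of the promoter selectivity factor SL1, had 2.97, 3.16 and 1.41 FPKM on 92, 87 and 34 reads. MRTO4, which prepares the ribosomal stalk, was high in sh1089-1 alone, with 38.1, 62.4 and 41.6 FPKM. NSA2 and FCF1, early factors of the large and the small subunit, were lower in sh1089-2. They had 19.9, 17.8 and 12 and 11.7, 9.62 and 6.98 FPKM. Also lower by 1.5-fold in sh1089-2 were UTP25 (3.86, 2.36 and 2.08 FPKM) and RSL1D1 (34.8, 25.6 and 22). So were ZNHIT6 (7.58, 5.65 and 4.28) and RIOK1 (9.89, 9.25 and 6.23). UTP25, RSL1D1 and ZNHIT6 were below shNC in sh1089-1 as well, and RIOK1 was within counting error there. The 9 measured transcription factors of the linked MAX and MLX networks bind E-boxes and include activators and repressors. Of these, 6 were below shNC in both hairpins (MYC, MAX, MXD4, MXI1, MNT and MGA), against 42.3% of all genes. The other 3 (MXD3, MLX and MLXIP) were above in both, against 33.3% of all genes. The medians were −0.07 and −0.21. The counting interval lay below 1 for 4 of the 9 in sh1089-1 and for 5 in sh1089-2, and above 1 for 2 and 1. By 1.5-fold in both hairpins, 0 were higher, against 3.08% of all genes, and 1 was lower, against 2.79%. The lower gene was the repressor MXI1, with 5.19, 2.47 and 2.27 FPKM. MYC, the most abundant of the 9, had 78.7, 59.1 and 67.8 FPKM.

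Ribosomal protein genes encode the products that these factors assemble. Of 45 large subunit ribosomal protein genes 30 were below shNC in sh1089-1 and 38 in sh1089-2, with medians of −0.10 and −0.15. Of 32 small subunit ribosomal protein genes 20 and 23 were below, with medians of −0.08 and −0.16. Among all genes 53.6% and 55.1% were below, with medians of −0.03 and −0.04. Between the hairpin lines 34 of 45 and 24 of 32 were lower in sh1089-2 (75.6% and 75%), against 52.1% of all genes, with medians of −0.07 and −0.09, against −0.27 for the 40 biogenesis genes. In sh1089-2 against shNC their medians were close to the −0.17 of the biogenesis genes. In sh1089-1 the ribosomal protein medians thus lay below shNC and the biogenesis median above it, and this difference between lists was not tested. Translation initiation factors had medians of −0.01, −0.13 and −0.10 in the 3 comparisons over 33 genes, and 26 genes of RNA polymerase III and its factors 0.11, −0.01 and −0.09.

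**Figure D4:**
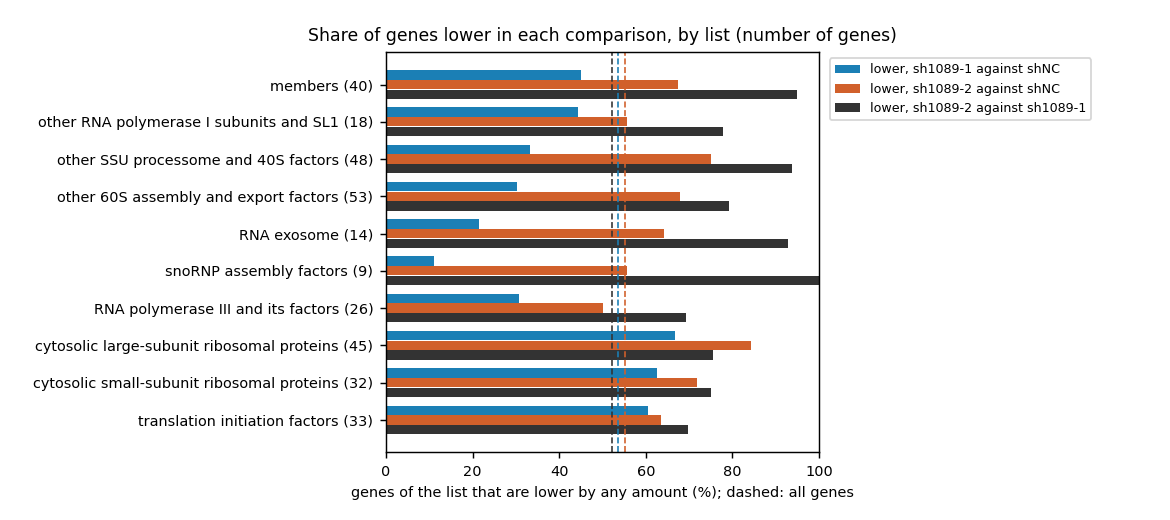
Share of genes (%) in each list that were lower by any amount in the 3 comparisons (bars), with the share among all 11198 genes as dashed lines and the number of genes in brackets. The black bars, sh1089-2 against sh1089-1, reach 38 of 40 for the biogenesis genes and 9 of 9 for the assembly factors of small nucleolar ribonucleoproteins, and are shorter for ribosomal proteins.

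Over the 40 genes the Spearman correlation of length with the difference was −0.40 in sh1089-1, −0.24 in sh1089-2 and 0.22 between the hairpin lines, and over all 11198 genes it was −0.11, −0.02 and 0.14. The points share their libraries and genes are not replicates, so these are descriptions. The median length was 4249 bp for the 40 genes and 4702 bp for all.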

How the data were processed

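RNA from 3 SK-Hep-1 lines was sequenced, 1 library each, after mRNA enrichment with a strand-specific library, per the labels' protocols. The deposited values are FPKM computed by the authors, with StringTie, FastQC and GRCh38 listed per the submitters' processing notes. The aligner, the annotation release and any use of strand in counting: not given in the sources used here. Ensembl identifiers were matched to symbols, and coordinates come from GENCODE 29 (GRCh38). Library totals were recovered from the steps of the FPKM values. For each gene a whole length was then searched that gives whole reads in all libraries, within rounding and at most 0.01 reads, and the one nearest to GENCODE 29 was taken. One was found for 99.99% of 19219 genes above 0, and it equalled the GENCODE 29 length for 61.9%. Because the length was searched, the reads of the other genes are less certain. Reads served only for 95% Clopper-Pearson intervals. A count of 0 would allow up to 0.280, 0.315 and 0.359 RPM (3 reads). The pseudocount of 1 understates differences of low genes. All 41 genes are accounted for, and values in full are given for the nucleolar chaperones, the RNA polymerase I genes, genes past 1.5-fold and those that differed most in each role. Other genes of the pathway were named where they passed 1.5-fold in both hairpins in the same direction; those named beyond that were chosen after their values were seen. The genes, roles and lists were chosen with earlier results of these data known. Calculations used Python 3.11.15, pandas 2.3.3 and scipy 1.17.1 and were tested on simulated data.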

Additional observations from a re-analysis of the deposited data

Results flagged for a closer look

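The hairpin libraries lay on opposite sides of shNC for the median of the 40 genes and for single genes, with 1 library each, so the difference was not tested. The median was 0.11 in sh1089-1 and −0.17 in sh1089-2, a gap of −0.28 in log2(FPKM + 1). The single genes are those whose counting intervals left out 1 in both libraries: NPM1 had 0.23 and −0.19 (a gap of −0.42), LTV1 0.44 and −0.48 (−0.92), RRP12 0.12 and −0.18 (−0.29), and WDR74 0.27 and −0.26 (−0.53). LTV1 rests on 65, 85 and 32 reads.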

How the results depend on the processing

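Of 141 values recomputed under other pseudocounts, filters, scalings and a 2-fold threshold, 133 stayed near the reported value, 8 moved and 0 reversed. Only medians could be labelled reversed, since a count either stayed or moved. The filter to protein-coding genes with at least 100 reads, and the counts by sign, were chosen after the data were examined. That filter kept the same 40 genes, and a pseudocount cannot change a sign. The 133 thus include values that were fixed in advance. All 8 that moved are counts past the threshold. The 3 genes higher in sh1089-1 became 1 with a pseudocount of 5, 1 after upper quartile scaling and 0 at 2-fold. Among all genes the shares higher were then 2.23%, 4.64% and 1.38%. The 2 genes lower in sh1089-2 became 0 with a pseudocount of 5 and 0 at 2-fold, where 2.02% and 1.61% of all genes were lower. The 1 gene lower in sh1089-2 than in sh1089-1 became 0 with a pseudocount of 5 and 0 at 2-fold. It also became 0 at a mean FPKM of at least 5, which leaves out LTV1. In that order, 0.813%, 0.884% and 1.68% of all genes were lower. The stricter fold and filter act by construction, as does the larger pseudocount, which shrinks every difference, and the upper quartile, which divides sh1089-1 by 1.018 and shNC by 0.988. By sign, 22 to 27 of the 40 genes lay above shNC in sh1089-1 under every scaling, and 25 to 27 below it in sh1089-2. At a mean FPKM of at least 5 these were 20 and 23 of 36 genes, and with no filter 23 and 28 of 41. Over these settings 46.5% to 58.1% of all genes lay below shNC in sh1089-1 and 46.7% to 55.9% in sh1089-2. Only the scalings and filters could move these sign counts. The number of genes lower in sh1089-2 than in sh1089-1 was 37 or 38 of 40 under every scaling. Among all genes 45.2% to 52.1% were. It was 34 of 36 at a mean FPKM of at least 5 (56% of all genes) and 39 of 41 with no filter (39.6%). The medians ran from 0.07 to 0.15 in sh1089-1, from −0.18 to −0.11 in sh1089-2 and from −0.31 to −0.20 between them. No paired analysis was possible because each group is 1 library, and for the same reason no replicate could be left out.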

Other observations

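A few genes of ribosome production other than NOP2 were also listed near 0. PWP2, a subunit of the small subunit processome, had 0.0273, 0.0307 and 0.0525 FPKM (shNC, then sh1089-1, then sh1089-2), and the helicase gene DDX47 0.334, 0.250 and 0.522. The ribosomal protein gene RPL17 had 0.606, 0.596 and 0.97 FPKM and RPL36A 1.04, 0.980 and 0.875. In GENCODE 29 the same-strand share of exon bases with other genes was 36.5% for DDX47, 32.7% for RPL17, 8.4% for RPL36A and 0.0% for PWP2. RPL17 and RPL36A have annotated read-through partners, RPL17-C18orf32 and RPL36A-HNRNPH2, which are not among the listed genes. These genes were singled out after their values were seen.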
